A study of Mus musculus with 24 samples.

Results

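The genes described here are 10 genes that mark the inhibitory interneurons of the hippocampus: the neuropeptide precursors *Sst*, *Npy*, *Cck*, *Vip*, *Pnoc* and *Crh*, the calcium-binding proteins *Pvalb* and *Calb2*, the secreted glycoprotein gene *Reln* and the transcription factor *Lhx6*. They were chosen by symbol and matched to their Ensembl identifiers among the 36605 genes of the deposited count table. All 10 were found, and all 10 passed the filter on low counts.

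Interneurons release GABA onto the principal cells of the hippocampus and onto each other, and they are sorted into classes by the peptides and calcium-binding proteins they carry. Somatostatin cells contact distal dendrites, parvalbumin basket cells fire fast onto cell bodies, cholecystokinin marks another class of basket cell, and vasoactive intestinal peptide and calretinin mark cells that mainly contact other interneurons. Neuropeptide Y and reelin mark neurogliaform cells, and *Lhx6* is kept on in interneurons born in the medial ganglionic eminence. Several of these genes are not confined to interneurons: *Cck* is also transcribed in pyramidal cells, and *Calb2* in mossy cells and young granule cells of the mouse dentate gyrus.

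Whole hippocampi of 24 mice were measured by RNA sequencing, 3 females and 3 males of each of 4 genotypes. Egr1cKO mice (genotype FF (+), ffPos in the plots) carried the floxed *Egr1* allele and Cre recombinase under the promoter of Nestin, a gene of neural progenitors, so that *Egr1* is deleted in neurons and glia of that lineage in the whole brain and not in interneurons alone. Floxed mice (FF (-), ffNeg) carried the floxed allele without Cre, Nestin-Cre mice (wt (+), wtPos) carried Cre with an intact *Egr1*, and wild-type mice (wt (-), wtNeg) carried neither. The floxed and the *Egr1* wild-type mice have identification numbers from separate ranges, so the floxed allele and the series of mice cannot be told apart. The labels give no age.

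The libraries held 18025168 to 34955004 counted reads, with a median of 22743950.5. Levels are given as CPM, read counts scaled to library size with TMM factors, and differences as log2 fold changes with their standard errors (SE). The targeted gene followed the labels: *Egr1*, the transcription factor gene deleted in the knockout, was at 7.95 ± 1.93 CPM (SD, n = 6) in Egr1cKO mice and at 93.5 ± 29.8 in floxed, 85.7 ± 28.2 in Nestin-Cre and 108 ± 27.7 in wild-type mice. For the tissue label, neurons were read from *Slc17a7*, the vesicular glutamate transporter of principal cells (1505 ± 103 CPM, SD, n = 24), and *Gad1*, which makes GABA (265 ± 18.3 CPM). Both genes are also transcribed outside the hippocampus, so they do not check the region. The hippocampal principal cell markers *Prox1* and *Fibcd1* were at 132 ± 28.5 and 178 ± 30.1 CPM. The labels also call the cells endocrine, but of the 8 pituitary genes listed only *Tshb* (1.24 ± 0.483 CPM) and *Pomc* (0.943 ± 0.475), both detected in every mouse, passed the filter on low counts, and *Gh*, *Prl*, *Fshb* and *Cga* had no read in 10, 15, 23 and 23 of the 24 mice. In 5 mice *Ttr*, the defining transcript of the choroid plexus, exceeded 100 CPM. These were the floxed males of replicates 2 and 3 and the Egr1cKO male of replicate 2. The others were the Nestin-Cre male of replicate 3 and the Nestin-Cre female of replicate 1. Fits without these mice were therefore unbalanced in genotype and sex. The libraries also differed in how the level of a gene, relative to its mean over the 24 mice, depended on its exonic length. This length slope, the change in log2 level per log2 base over 15212 protein-coding genes other than these 10, ran from -0.0994 to 0.0856, and its mean was 0.0375 ± 0.0405 (SD, n = 6) in Egr1cKO, -0.0323 ± 0.0583 in floxed, -0.0253 ± 0.0621 in Nestin-Cre and 0.0201 ± 0.0233 in wild-type mice.

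Promoter sequences are shown for 4 of the genes: *Reln*, which had the smallest p of the 10 in the comparison with Egr1cKO mice, *Sst* and *Vip*, which varied most alike across mice, and *Cck*, which varied most opposite to *Reln*. Each is the 250 bases before the RefSeq transcription start (GRCm38.p6), read in the direction of the gene. Capitals mark GCGNGGGCG, the element that EGR1 is known to bind, in *Reln*, and the cAMP response element TGACGTCA or its core TGACG in the others, where a match on the opposite strand reads CGTCA.
Reln, chr5:22344706-22344955, minus strand: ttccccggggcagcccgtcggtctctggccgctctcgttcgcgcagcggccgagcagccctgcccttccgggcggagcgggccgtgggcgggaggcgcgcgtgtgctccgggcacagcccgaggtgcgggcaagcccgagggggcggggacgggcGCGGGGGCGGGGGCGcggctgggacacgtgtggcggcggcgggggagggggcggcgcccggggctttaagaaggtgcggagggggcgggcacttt
Sst, chr16:23890845-23891094, minus strand: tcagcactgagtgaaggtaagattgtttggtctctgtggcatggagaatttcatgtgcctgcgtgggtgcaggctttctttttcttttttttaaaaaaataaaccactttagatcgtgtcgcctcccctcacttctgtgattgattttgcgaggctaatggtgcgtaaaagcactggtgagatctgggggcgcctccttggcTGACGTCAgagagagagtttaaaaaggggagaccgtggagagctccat
Vip, chr10:5638968-5639217, plus strand: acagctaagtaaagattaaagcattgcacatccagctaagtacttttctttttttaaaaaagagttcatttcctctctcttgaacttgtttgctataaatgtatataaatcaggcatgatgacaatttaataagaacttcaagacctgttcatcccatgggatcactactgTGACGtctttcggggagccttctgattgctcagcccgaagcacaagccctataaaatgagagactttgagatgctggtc
Cck, chr9:121495695-121495944, minus strand: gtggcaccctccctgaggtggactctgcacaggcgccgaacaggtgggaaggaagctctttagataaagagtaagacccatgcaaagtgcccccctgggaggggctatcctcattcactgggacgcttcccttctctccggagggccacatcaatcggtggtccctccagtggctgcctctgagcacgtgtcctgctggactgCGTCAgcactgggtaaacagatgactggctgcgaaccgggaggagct
The *Reln* window held 2 matches of GCGNGGGCG, which begin at positions -95 and -89 from the start site and overlap each other. The *Sst* window held TGACGTCA at -48, inside which TGACG also matches on each strand, the *Vip* window held TGACG at -79, and the *Cck* window held it on the opposite strand at -47. Among 32851 RefSeq promoter windows of 300 bases (250 before and 50 after the start), searched on both strands, GCGNGGGCG occurred in 5.55%, TGACGTCA in 1.79%, TGACG in 20.8% and the TATA box TATAAA in 13.6%. RefSeq windows were at hand for 7 of the 10 genes, 10 windows in all, and these letters matched in 1, 1, 3 and 2 of them. A match describes the letters of the window and says nothing on binding.

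Per base of exon, the peptide genes *Cck* and *Sst* were by far the most abundant of the 10. On the RPKM scale (CPM divided by the exonic length in kilobases) their levels were 258 ± 32.3 and 194 ± 36.8 (SD, n = 24). *Npy* followed at 45.7 ± 7.57, *Pvalb* at 22.5 ± 4.81 and *Calb2* at 13.6 ± 3.96. The remaining genes lay lower and closer together. *Vip* was at 4.17 ± 1.05 RPKM, *Lhx6* at 3.40 ± 0.397, *Pnoc* at 2.76 ± 0.419 and *Reln* at 2.71 ± 0.779, so that *Pnoc* and *Reln*, neighbours in this order, did not differ beyond their spread. *Crh* was lowest at 1.21 ± 0.332 RPKM, with 15 to 57 reads per library, so its values carry the largest counting error.

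From mouse to mouse the typical spread of these genes was wider than that of all protein-coding genes, while *Lhx6* and *Cck* were steadier than the typical gene. The coefficient of variation over the 24 mice had a median of 20.1% over the 10 genes and of 13.9% over 15222 protein-coding genes. It was largest for *Calb2* (29.1%), *Reln* (28.7%) and *Crh* (27.4%), and smallest for *Lhx6* (11.7%) and *Cck* (12.5%).

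**Figure D1:**
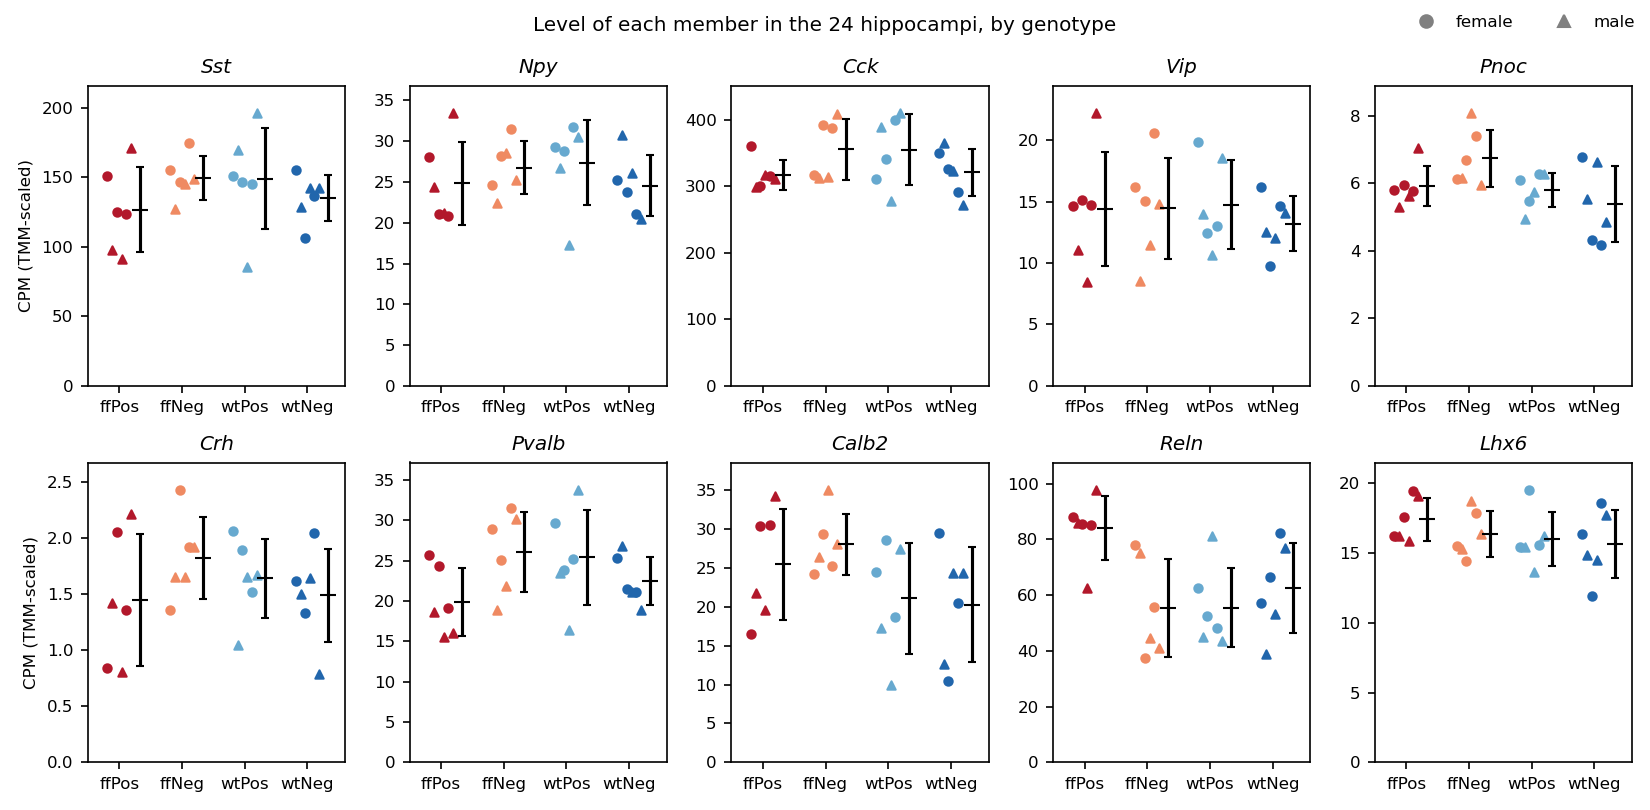
Level of each gene in each of the 24 mice (CPM, linear axes from 0), by genotype, with females as circles and males as triangles; black bars give the mean and SD of 6 mice. In every panel the genotypes overlap, and in the *Reln* panel 5 of the 6 Egr1cKO mice lie above the highest other mouse, at 82.3 CPM.

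The question of the main comparison was whether the interneuron genes differ where *Egr1* is lost. *Reln* had the smallest p of the 10 genes, with higher values in Egr1cKO mice, and *Pvalb* had the next smallest, with lower values, but neither passed the threshold. At an adjusted p of at most 0.05 and a fold change of at least 1.2, edgeR called 0 of the 10 genes between the 6 Egr1cKO mice and the other 18, where it called 0.00543% of 18433 genes (*Egr1* alone). *Reln* and *Pvalb*, 2 of the 10, had an unadjusted p under 0.05, as did 15.1% of all genes, so the share of the list is close to that of the genome. Their ranks among the 18433 genes were 65 and 1475. DESeq2 called 0 of the 10 in this comparison. The median log2 fold change of the 10 was -0.04, and that of all genes -0.0076. Its sign turned to 0.094 with the length slope of the libraries as a term (7 of 10 higher) and to 0.026 without the 5 mice with high *Ttr* (6 of 10 higher), both alternatives chosen after seeing the data.

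*Reln* codes for a large protein secreted by Cajal-Retzius cells and by interneurons, which acts through the receptors *Vldlr* and *Lrp8* (chr5:21884454-22344702 on GRCm38, minus strand, 23738 exonic bases). The lowest, median and highest levels of *Reln* were 62.5, 85.7 and 97.8 CPM in Egr1cKO mice, 37.5, 50.1 and 78.1 in floxed, 43.6, 50.4 and 81.2 in Nestin-Cre, and 39.0, 61.9 and 82.3 in wild-type mice. In each of the 3 control genotypes 1 or more mice reached the range of the Egr1cKO mice, and 5 of the 6 Egr1cKO mice exceeded 82.3, the highest of the other 18. The 3 Egr1cKO females were at 85.1, 85.6 and 87.9 CPM, and the Egr1cKO males at 62.5, 85.8 and 97.8. Against the other 18 mice *Reln* was 1.46 times as high, a log2 fold change of 0.55 (SE 0.14, edgeR adjusted p = 0.179, rank 65 among 18433 genes).

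The comparisons with single genotypes share the Egr1cKO mice and are set side by side. *Reln* was higher by a log2 fold change of 0.60 (SE 0.17, edgeR adjusted p = 0.243) against floxed mice, where 0.0221% of 18074 genes were called and 15.8% had an unadjusted p under 0.05. Against Nestin-Cre mice the value was 0.60 (SE 0.14, edgeR adjusted p = 0.357), with 0.00558% of 17909 genes called and 12.1% at an unadjusted p under 0.05. It was 0.43 (SE 0.14, edgeR adjusted p = 0.593) against wild-type mice, with 0.0111% of 18062 genes called and 7.23% at an unadjusted p under 0.05. In all 3 comparisons edgeR called 0 of the 10 genes, while 2, 2 and 1 of them had an unadjusted p under 0.05. DESeq2 called 1, *Reln* against Nestin-Cre mice, at 0.60 with an adjusted p of 0.0461, where it called 0.201% of 17909 genes. Without the Nestin-Cre male of replicate 2, edgeR gave 0.76 there with an adjusted p of 0.00492. The number of all genes called in that fit rose from 1 to 795. Without the floxed male of replicate 1 edgeR gave 0.75 against floxed mice with an adjusted p of 0.0347. There the number of all genes called rose from 4 to 327. These left-out mice had the highest length slopes of their genotypes, 0.0856 and 0.0412. The part of the slope in these fits was not tested.

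The length slope moved with *Reln*, the gene with the most exonic bases of the 10. With the slope as a term in the fit, an alternative chosen after seeing the data, the log2 fold changes of *Reln* in Egr1cKO mice were 0.35 against the other 18 mice (edgeR adjusted p = 0.51), 0.38 against floxed, 0.45 against Nestin-Cre and 0.43 against wild-type mice. Cajal-Retzius markers were low throughout. *Trp73*, their defining transcription factor, was at 5.60 ± 1.097 CPM (SD, n = 24), *Lhx1* at 0.352 ± 0.253 and *Lhx5* at 0.285 ± 0.173, with *Lhx5* at 0 in 1 mouse. The summed level of the 5 markers ran from 8.76 to 13.0 CPM in Egr1cKO, 8.78 to 11.2 in floxed, 8.18 to 9.75 in Nestin-Cre and 7.93 to 11.4 in wild-type mice, with medians of 10.7, 9.47, 9.04 and 8.82. Of 4 tested markers 3 had higher values in Egr1cKO mice than in the other 18 and 0 were called, with *Lhx1* at a log2 fold change of 0.90 (SE 0.40, edgeR adjusted p = 0.289). Their part in the *Reln* values was not tested. In bulk tissue fewer cells of a type and less RNA per cell cannot be told apart. An antisense gene that shares 246 exonic bases with *Reln*, *Gm10475*, had 0 to 5 reads per library, so reads of a neighbour add little to its count.

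**Figure D2:**
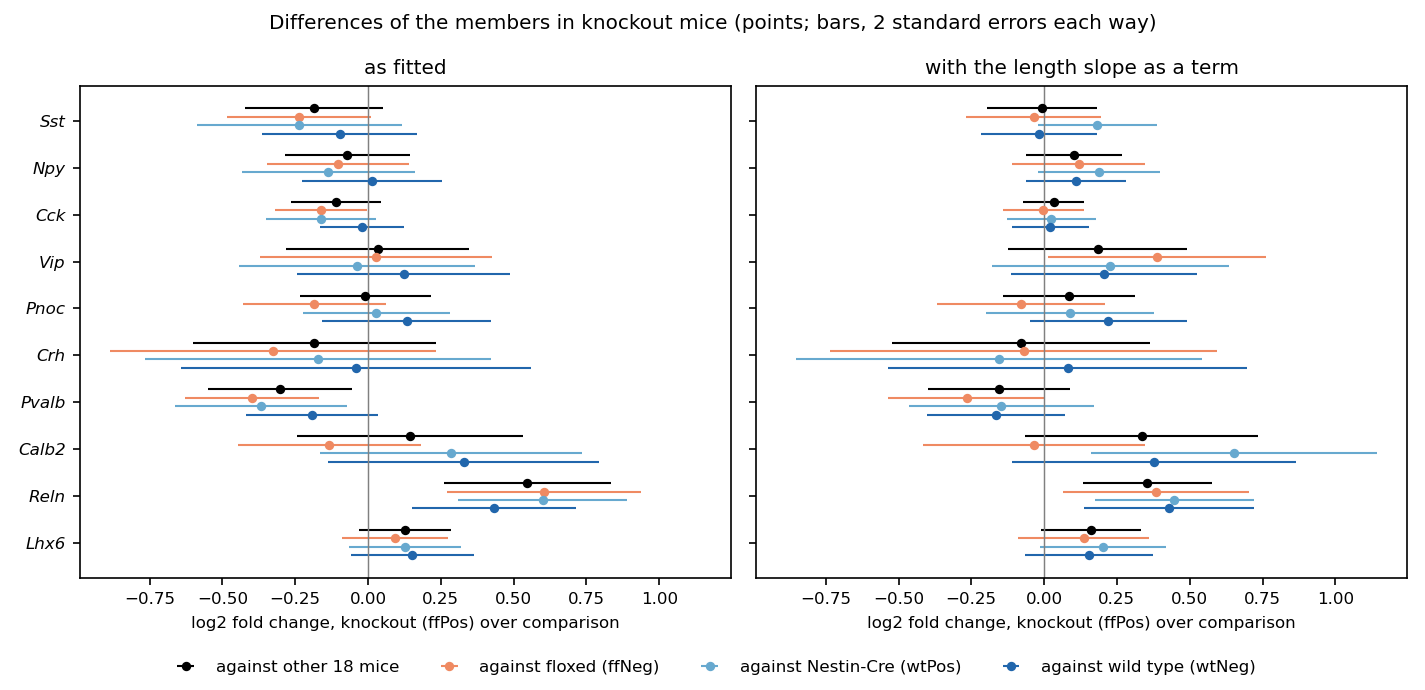
Log2 fold change of each gene in Egr1cKO mice (ffPos) against the other 18 mice and against each control genotype, with bars of 2 standard errors each way; the right panel has the length slope of each library as a term. *Reln* lies to the right of 0 in all 4 comparisons of both panels, at 0.55 and 0.35 against the other 18 mice, and *Pvalb* moves from -0.30 to -0.15.

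*Pvalb* codes for parvalbumin, the calcium buffer of fast-spiking basket cells (chr15:78191114-78206400, minus strand). Its lowest, median and highest levels were 15.6, 18.9 and 25.7 CPM in Egr1cKO mice, 18.9, 27.0 and 31.5 in floxed, 16.4, 24.5 and 33.8 in Nestin-Cre, and 18.9, 21.3 and 26.7 in wild-type mice. The groups overlapped widely, and 2 of the 6 Egr1cKO mice lay below the lowest of the other 18. The log2 fold change in Egr1cKO mice was -0.30 (SE 0.12, edgeR adjusted p = 0.261) against the other 18, -0.40 (SE 0.11, adjusted p = 0.243) against floxed, -0.37 (SE 0.15, adjusted p = 0.370) against Nestin-Cre and -0.19 (SE 0.11, adjusted p = 0.753) against wild-type mice. With the length slope as a term these values were -0.15, -0.27, -0.15 and -0.16, and without the 5 mice with high *Ttr* they were -0.17, -0.25, -0.14 and -0.14. Among females alone the value against wild-type mice was 0.019, with the opposite sign. *Reln* without the 5 mice was at 0.55, 0.50, 0.67 and 0.50 in the same comparisons. The 3 Egr1cKO males were at 15.6, 16.1 and 18.6 CPM and the 3 females at 19.1, 24.3 and 25.7.

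The other calcium-binding protein, calretinin, is coded by *Calb2* (chr8:110137502-110168210, minus strand). Its levels ranged 3.54-fold over the 24 mice. The lowest, median and highest were 16.5, 26.1 and 34.2 CPM in Egr1cKO mice, 24.2, 27.3 and 35.0 in floxed, 9.89, 21.6 and 28.5 in Nestin-Cre, and 10.4, 22.4 and 29.4 in wild-type mice. All 4 genotypes overlapped, and the lowest mice were those of the Nestin-Cre and wild-type groups.

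Among the peptide genes, somatostatin, coded by *Sst* (chr16:23889573-23890958, minus strand), had a mean of 127 ± 30.7 CPM (SD, n = 6) in Egr1cKO mice, 150 ± 15.6 in floxed, 149 ± 36.5 in Nestin-Cre and 135 ± 16.6 in wild-type mice. Of the 6 Egr1cKO mice 4 lay below the lowest floxed mouse, at 127 CPM, and none below the lowest Nestin-Cre mouse, at 85.8. The interval of the *Sst* difference against the other 18 mice (approximate, 95%) ran from a log2 fold change of -0.42 to 0.05.

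Neuropeptide Y, coded by *Npy* (chr6:49822710-49829507, plus strand), had means of 24.8 ± 5.05 CPM in Egr1cKO, 26.7 ± 3.25 in floxed, 27.4 ± 5.23 in Nestin-Cre and 24.6 ± 3.76 in wild-type mice. For cholecystokinin, coded by *Cck* (chr9:121489824-121495694, minus strand), the means were 317 ± 22.5, 355 ± 45.3, 355 ± 53.3 and 321 ± 35.0 CPM in the same order. The means of both genes differed by less than the SD of at least 1 of the groups compared. Against the other 18 mice the 95% intervals of the log2 fold change in Egr1cKO mice ran from -0.28 to 0.14 for *Npy* and from -0.26 to 0.04 for *Cck*.

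*Vip*, the gene of vasoactive intestinal peptide (chr10:5639218-5647617, plus strand), had group means between 13.2 and 14.8 CPM. Single mice ranged from 8.43 to 22.2 CPM, both ends among the Egr1cKO mice. The 95% interval against the other 18 mice ran from -0.27 to 0.34. *Pnoc* codes for the precursor of nociceptin, an opioid-like peptide (chr14:65400673-65425472, minus strand). It was at 5.91 ± 0.592 CPM in Egr1cKO, 6.74 ± 0.838 in floxed, 5.80 ± 0.518 in Nestin-Cre and 5.39 ± 1.13 in wild-type mice, and 5 of the 6 Egr1cKO mice lay below the lowest floxed mouse, at 5.96 CPM. *Crh*, which codes for corticotropin-releasing hormone (chr3:19693401-19695396, minus strand), had group means between 1.45 and 1.82 CPM, and its interval was the widest of the 10, from -0.59 to 0.22.

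*Lhx6*, the transcription factor that directs the development of somatostatin and parvalbumin cells (chr2:36081953-36105408, minus strand), had the steadiest level. Its means were 17.4 ± 1.55 CPM in Egr1cKO, 16.4 ± 1.64 in floxed, 15.96 ± 1.93 in Nestin-Cre and 15.6 ± 2.42 in wild-type mice, and the 95% interval of its log2 fold change in Egr1cKO mice against the other 18 ran from -0.03 to 0.28.

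The alleles alone were compared with wild-type mice, which both comparisons share. Between Nestin-Cre and wild-type mice edgeR called 0 of the 10 genes and 0% of 18022, and at an unadjusted p under 0.05 it had 0 of the 10 and 6.13% of all. DESeq2 called 0 of the 10. Between floxed and wild-type mice edgeR and DESeq2 each called 0 of the 10, and edgeR called 0% of 18220 genes. Here *Calb2* and *Pnoc* had an unadjusted p under 0.05, as did 9.42% of all genes, with log2 fold changes of 0.46 (SE 0.19, adjusted p = 0.524) and 0.32 (SE 0.15, adjusted p = 0.524) in floxed mice. The median of the 10 was 0.14 in each comparison, against 0.0092 and 0.00041 over all genes. With the length slope as a term it was -0.017 in Nestin-Cre mice, so its sign turned, and 0.064 in floxed mice, and without the 5 mice with high *Ttr* it was 0.024 and 0.13.

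Whether Cre changed the genes differently with and without the floxed allele was tested as an interaction over all 24 mice. EdgeR called 0 of the 10 and 0.00533% of 18766 genes, and DESeq2 0 of the 10. *Reln*, *Pvalb* and *Cck* had an unadjusted p under 0.05, as did 18.8% of all genes. The difference of the 2 log2 differences was 0.78 (SE 0.26, edgeR adjusted p = 0.152) for *Reln* and -0.56 (SE 0.20, adjusted p = 0.155) for *Pvalb*. *Cck* gave -0.30 (SE 0.13, adjusted p = 0.221). With the length slope as a term the values were 0.30 for *Reln*, -0.20 for *Pvalb* and 0.036 for *Cck*, whose sign turned, and 0 of the 10 genes had an unadjusted p under 0.05, against 3.44% of all genes. In a test for any difference among the 4 genotypes, edgeR called 0 of the 10 genes and 0.0266% of 18766, and DESeq2 0 of the 10. *Reln* (edgeR adjusted p = 0.420) and *Pvalb* (adjusted p = 0.434) had an unadjusted p under 0.05, beside 11.2% of all genes.

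Sex was compared over all genotypes, and none of the 10 genes passed the threshold. Between 12 females and 12 males edgeR called 0 of the 10 and 0.0701% of 17124 genes, with 0 of the 10 and 5.66% of all genes at an unadjusted p under 0.05, and DESeq2 called 0 of the 10. The smallest p was that of *Pvalb* (edgeR adjusted p = 0.904). A sex difference that changes in Egr1cKO mice was called for 0 of the 10 genes and 0.00507% of 19742, with 0 of the 10 and 6.09% of all genes at an unadjusted p under 0.05, and DESeq2 called 0 of the 10.

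Other genes of the same cells were read from fixed lists, and edgeR called 0 of their genes in the comparison of Egr1cKO mice with the other 18. All 6 of 6 genes for GABA synthesis and transport had higher values in Egr1cKO mice, 3 with an unadjusted p under 0.05, and their median log2 fold change was 0.15. They include *Gad2*, a GABA-synthesizing enzyme (0.27, SE 0.09, edgeR adjusted p = 0.204) and *Abat*, which breaks GABA down (0.18, SE 0.07, adjusted p = 0.237). Of 15 further interneuron markers 12 had higher values, with a median of 0.04 and 7 at an unadjusted p under 0.05. Those with the smallest p were *Nos1*, the nitric oxide synthase of neurogliaform and ivy cells (0.32, SE 0.09), and *Ndnf*, another neurogliaform marker (0.36, SE 0.11). Next were *Erbb4*, the neuregulin receptor of interneurons (0.41, SE 0.13), and the synaptic protein gene *Elfn1* (0.26, SE 0.10). *Npy*, which also marks neurogliaform cells, had a negative value (-0.07, SE 0.11, edgeR adjusted p = 0.780). The sign of *Npy* turned in 3 of 9 alternatives. Among 15 transcription factors of the interneuron lineage 13 had higher values, with a median of 0.10, and *Sox6*, *Npas3* and *Dlx2* had an unadjusted p under 0.05. Over all genes 15.1% had an unadjusted p under 0.05 in this comparison. With the length slope as a term that share was 7.17%, and the numbers at an unadjusted p under 0.05 were 1 of the 6 GABA genes, 3 of the 15 markers and 1 of the 15 transcription factors. With DESeq2 the numbers higher were 6 GABA genes, 12 markers and 12 transcription factors, and with the length slope as a term they were 6, 10 and 13.

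Receptors and binding proteins of the peptides and of reelin were mixed, with 11 of 18 higher and a median of 0.05, which was 0.0022 with the length slope as a term. At an unadjusted p under 0.05 were *Crhbp*, which binds corticotropin-releasing hormone (-0.29, SE 0.11), the somatostatin receptor *Sstr4* (0.43, SE 0.18) and *Vipr1*, a receptor of vasoactive intestinal peptide (-0.13, SE 0.06). Of 10 other neuropeptide precursors 5 had higher values (4 with DESeq2 and 7 with the length slope as a term). *Penk*, the enkephalin precursor (0.60, SE 0.22), *Cartpt* (0.85, SE 0.38) and *Pthlh* (0.50, SE 0.19) had positive values and *Cort*, the gene of cortistatin, a relative of somatostatin, a negative one (-0.49, SE 0.18), all with an edgeR adjusted p between 0.229 and 0.299. The values of *Penk* and *Cartpt* rested on the Egr1cKO male of replicate 3, which had 82.5 CPM of *Penk* and 11.2 of *Cartpt* where the next Egr1cKO mouse had 30.02 and 2.38. Without that mouse *Penk* was at 0.0097 (edgeR adjusted p = 0.977) and *Cartpt* at -0.36 (adjusted p = 0.528), while *Pthlh* was at 0.42 and *Cort* at -0.52. The median of *Penk* was 18.9 CPM in Egr1cKO, 19.8 in floxed, 21.6 in Nestin-Cre and 19.3 in wild-type mice. *Adora2a*, a receptor of striatal neurons, had a positive value (0.70, SE 0.29, adjusted p = 0.271), and 5 of the 5 striatal markers had higher values in Egr1cKO mice (4 of 5 with DESeq2). The summed level of the striatal markers ran from 21.8 to 69.3 CPM in Egr1cKO, 21.7 to 48.2 in floxed, 19.8 to 48.1 in Nestin-Cre and 19.0 to 32.7 in wild-type mice, and no striatal marker was at 0 in any mouse. Their part in the values of *Penk* was not tested.

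Across mice the genes did not vary independently. Of the 45 pairs, 16 were correlated at an adjusted p of at most 0.05 (Pearson r of log2(CPM + 0.5) over 24 mice, two-sided permutation test with 100000 draws, Benjamini-Hochberg over the 45 pairs), 13 with a positive and 3 with a negative sign. Spearman's rho also gave 16, of which 14 were positive. Correlation of this size is common in these libraries: r was at least 0.483 in size, the smallest among the 16, for 11.5% of the 115847031 pairs of protein-coding genes. The number of pairs at an adjusted p of at most 0.05 was 12 within the 12 *Egr1* wild-type mice, 0 within the 12 floxed mice and 6 without the 5 mice with high *Ttr*. It was 8 without the Nestin-Cre male of replicate 3 and 9 without that of replicate 2.

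**Figure D3:**
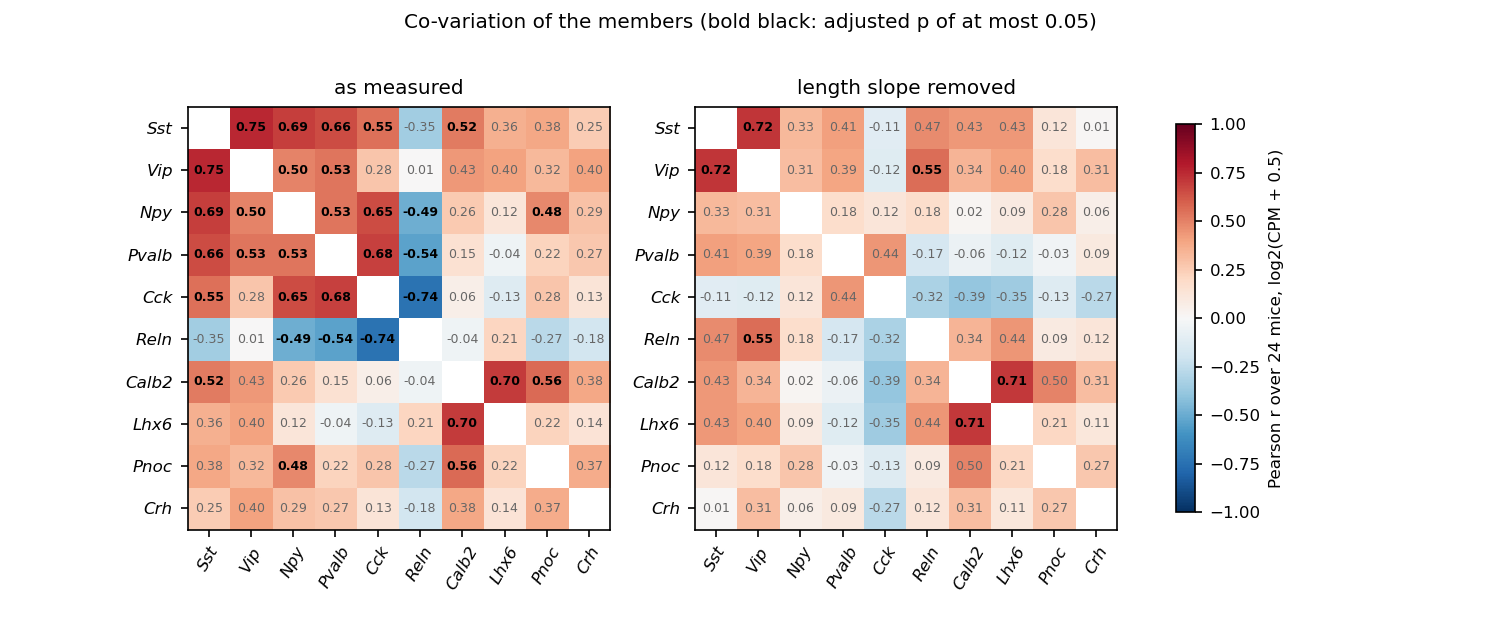
Pearson r between each pair of genes over the 24 mice, on log2(CPM + 0.5), as measured (left) and after removal of the length slope of the libraries (right), with bold black numbers for pairs at an adjusted p of at most 0.05. On the left, 16 of 45 pairs are bold, among them 3 negative ones of *Reln* with *Pvalb*, *Npy* and *Cck*; on the right 3 pairs are bold.

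*Sst* and *Vip*, genes of separate interneuron classes, varied most alike. Their r was 0.75 (rho 0.74, permutation p = 1e-05, which is the smallest that 100000 draws can give, adjusted p = 0.00045), with 0.75 within the 12 *Egr1* wild-type mice, 0.78 within the 12 floxed mice and 0.70 without the 2 mice farthest from the median of *Sst*. *Calb2* and *Lhx6* had an r of 0.70 (rho 0.60, adjusted permutation p = 0.00105), with 0.73 and 0.50 within the series of mice and 0.48 without the 2 farthest mice. *Cck* and *Reln* varied in opposite directions, with an r of -0.74 (rho -0.71, adjusted permutation p = 0.00105), and -0.90 and -0.68 within the series. Mice with high *Cck* were thus mice with low *Reln* in both series.

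The other pairs with an r over 0.6 joined the peptide genes and *Pvalb*: *Sst* with *Npy* (0.69), *Pvalb* with *Cck* (0.68), *Sst* with *Pvalb* (0.66) and *Npy* with *Cck* (0.65). *Pvalb* and *Npy* opposed *Reln* at -0.54 and -0.49. *Sst* with *Calb2* had an r of 0.52, and of 0.35 without the 2 mice farthest from the median of *Sst*. *Crh* had 0 of its 9 pairs at an adjusted p of at most 0.05 by Pearson's r, and 2 by Spearman's rho, with *Calb2* (r = 0.38, rho 0.52, adjusted permutation p of rho = 0.0323) and with *Vip* (r = 0.40, rho 0.49, adjusted permutation p of rho = 0.0453).

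**Figure D4:**
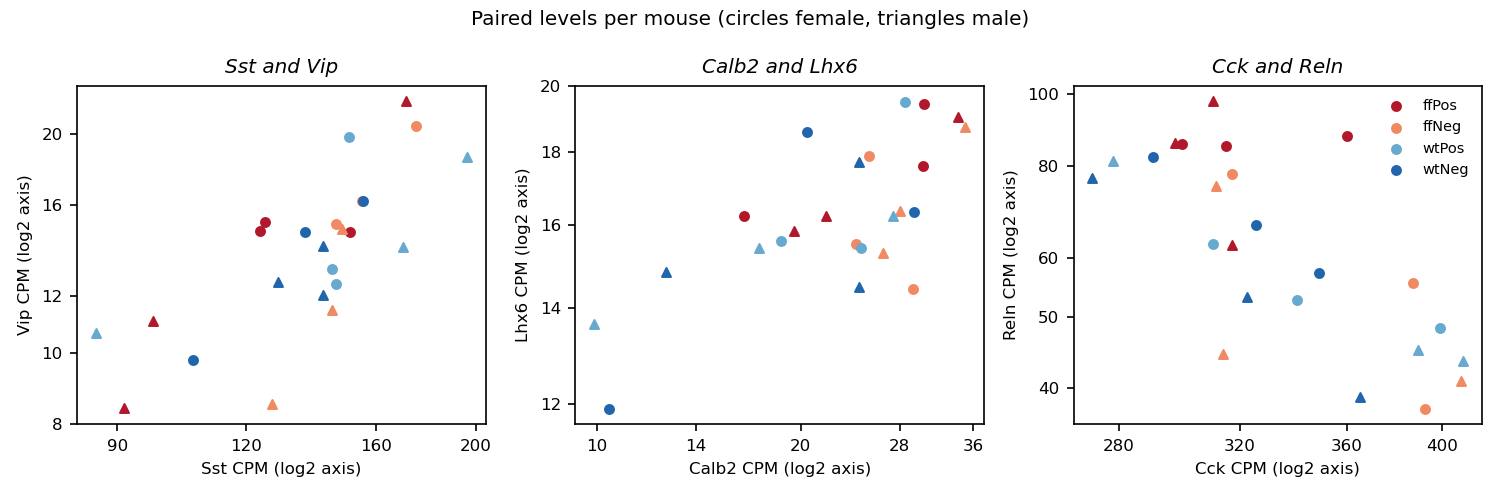
Levels of 3 pairs of genes in each mouse (CPM, log2 axes), colored by genotype, with females as circles and males as triangles. *Sst* and *Vip* (r = 0.75) and *Calb2* and *Lhx6* (r = 0.70) rise together, *Cck* and *Reln* (r = -0.74) run opposite, and mice of all 4 genotypes lie along each trend.

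The length slope moved with several of the genes. *Cck* (r = -0.82), *Npy* (-0.75), *Sst* (-0.73) and *Pvalb* (-0.59), whose transcripts have 566 to 1305 exonic bases, were lower in libraries with a high slope, and *Reln* (0.76) was higher, each at an adjusted permutation p of at most 0.0263 over the 160 relations of the 10 genes with library properties and marker lists. Within the 12 *Egr1* wild-type and the 12 floxed mice r was -0.88 and -0.78 for *Cck*, and 0.80 and 0.76 for *Reln*. Over all protein-coding genes the median r with the slope was -0.40 for 1003 genes under 1500 exonic bases, -0.19 for 7745 genes of 1500 to 5000 bases and 0.28 for 6474 longer genes. For the total count of a library the smallest adjusted p over the 10 genes was 0.487, for *Reln*.

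**Figure D5:**
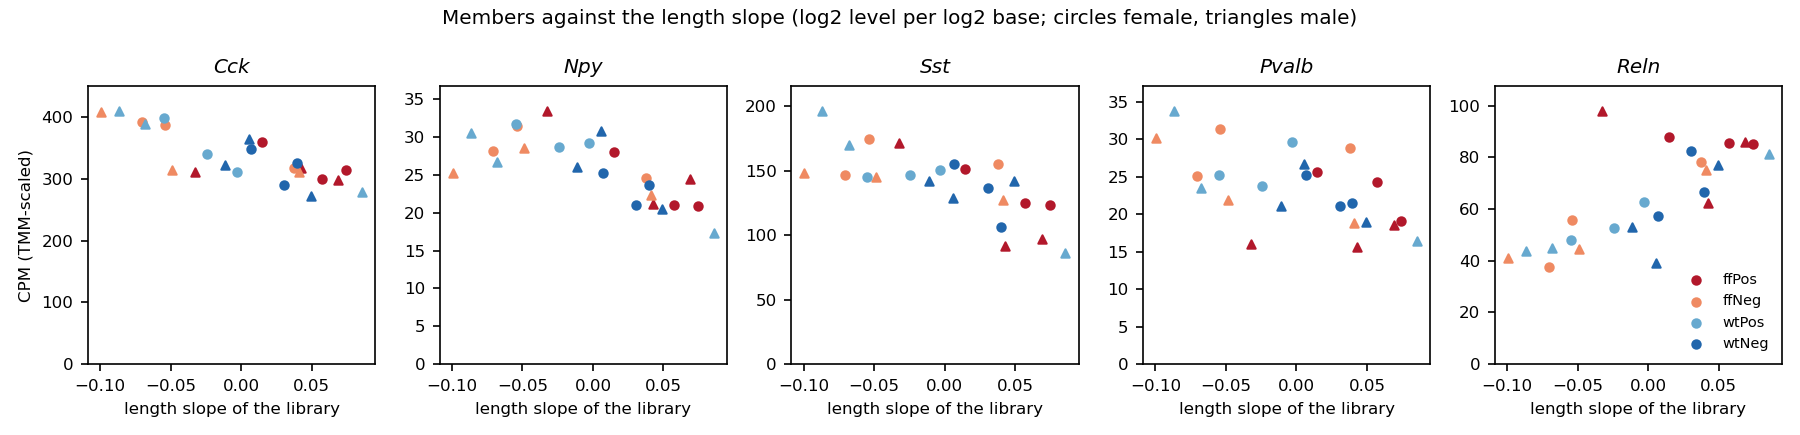
CPM of 5 genes in each mouse (linear axes from 0) against the length slope of the library, in log2 level per log2 base of exon, colored by genotype, with females as circles and males as triangles. *Cck* (r = -0.82), *Npy* (-0.75), *Sst* (-0.73) and *Pvalb* (-0.59) fall and *Reln* (0.76) climbs with the slope, and Egr1cKO mice have mostly positive slopes.

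After a linear fit on the slope was removed, an alternative chosen after seeing the data, 3 pairs had an adjusted permutation p of at most 0.05: *Sst* with *Vip* (r = 0.72), *Calb2* with *Lhx6* (0.71) and *Vip* with *Reln* (0.55). The first 2 of these were among the 16 as measured. *Vip* with *Reln* had an r of 0.0055 as measured, and its adjusted permutation p after removal was 0.048. The share of all gene pairs with an r of this size after removal was not computed. The r of *Cck* with *Reln* was -0.32 after removal, that of *Sst* with *Npy* 0.33 and that of *Npy* with *Cck* 0.12, and r changed sign in 12 of the 45 pairs. *Sst* with *Reln* went from -0.35 to 0.47. The part of RNA quality, library preparation or cell make-up in the slope was not tested.

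The summed levels of marker lists gave further relations, with adjusted permutation p values over the same 160. *Reln* varied with the genes for GABA synthesis and transport (r = 0.89, rho 0.86, adjusted p = 0.000533, 0.83 within the *Egr1* wild-type and 0.91 within the floxed mice) and with the other interneuron markers (0.79, rho 0.80, adjusted p = 0.000533), which *Npy* (-0.58, rho -0.60, adjusted p = 0.0281) and *Cck* (-0.56, rho -0.57, adjusted p = 0.0353) opposed. The summed GABA list had medians of 1367 CPM in Egr1cKO, 1183 in floxed, 1177 in Nestin-Cre and 1217 in wild-type mice. *Cck* opposed the GABA list (r = -0.64, rho -0.66, adjusted p = 0.00988).

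*Vip* moved with markers of other brain regions. It was high where the lists for striatum (r = 0.70, rho 0.70, adjusted p = 0.00173) and neocortex (0.64, rho 0.74, adjusted p = 0.00192) were high, and low where the principal cell list was high (-0.71, rho -0.66, adjusted p = 0.00173). *Vip* also followed the thalamic markers (0.55, rho 0.64, adjusted p = 0.0353). The neocortical sum ran from 126 to 330 CPM over the 24 mice, the thalamic sum from 45.2 to 74.8 and the principal cell sum from 2073 to 3120, with every neocortical, thalamic and principal cell marker detected. Their part in the levels of *Vip* was not tested. *Sst* was also low where the principal cell list was high (-0.58, rho -0.51, adjusted p = 0.0300). Further relations had an adjusted permutation p of at most 0.05 by rho alone. Among these, *Vip* followed the interneuron lineage transcription factors (r = 0.53, rho 0.57, adjusted p of rho = 0.0294). *Reln* followed the neocortical list (r = 0.29, rho 0.55, adjusted p of rho = 0.0401). *Sst* followed the striatal list (r = 0.46, rho 0.53, adjusted p of rho = 0.0494). By both r and rho, *Sst* and *Vip* varied with the other neuropeptide precursors (r = 0.75 and 0.75, adjusted p = 0.000914 and 0.0008). *Pnoc* with the hypothalamic list passed by r alone (r = 0.55, adjusted p = 0.0421, rho 0.44, adjusted p of rho = 0.121). That relation rested on the 2 farthest mice, since r was 0.28 without them.

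As a description, the 3 protein-coding genes most like each member were found by Pearson r over the 24 mice. *Calb2* and *Lhx6* shared *Nr2f2* (r = 0.78 and 0.80), a transcription factor also known as COUP-TFII that marks interneurons from the caudal ganglionic eminence. For *Lhx6* the closest was *Trhr*, the receptor of thyrotropin-releasing hormone (0.87). Those of *Reln* included *Zkscan16* (0.90) and the adrenergic receptor gene *Adra1a* (0.89). For *Sst* the closest were *6330403K07Rik* (0.90), the ATP synthase subunit gene *Atp5j2* and *Uchl1*, a ubiquitin hydrolase of neurons. *Vip* was followed by *Tmsb10*, *Cyb561* and *Tubb3* (0.86 to 0.89), *Cck* by *Cops9*, *Mrpl52* and *Cfl1* (0.91 each), *Pvalb* by *Ier5*, *Ckmt1* and *Ldhb* (0.81 to 0.83), and *Npy* by *Tmem214*, *Rtl8a* and *Romo1* (0.81 each). Those of *Calb2* besides *Nr2f2* were *Necab2* (0.78), a calcium-binding protein gene, and *Cpne2* (0.77). *Pnoc* and *Crh* had no close neighbour, with *Prodh* (0.70) and *Pde9a* (0.70) as the nearest.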

How the data were processed

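The 10 genes, the marker lists and the tests were chosen with earlier results of these data known. The authors extracted total RNA (the labels name polyA RNA as the molecule), sequenced non-stranded libraries in paired-end mode, trimmed the reads with Trim Galore and mapped them with STAR to GRCm38. They deposited whole-number counts per gene without normalization; the annotation used for counting is not given in the sources used here. All 24 columns were used. Genotype and sex came from the labels, and each mouse was 1 replicate.

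Symbols, positions and exonic lengths came from GENCODE M21. The counts were tested in R 4.3.3 with edgeR 4.0.16 (TMM, filterByExpr with a minimum count of 10, quasi-likelihood F test, Benjamini-Hochberg adjustment over all genes). Fits were restricted to the mice of the comparison, with sex as a term between single genotypes. A call needed an adjusted p of 0.05 or less and a fold change of at least 1.2 except in interactions and in the test of any difference. An SE is the size of the log2 fold change divided by the square root of F. CPM were scaled with TMM over 19742 genes that passed the filter in all 24 mice together, and correlations were computed in Python 3.11.15 with numpy 2.4.6. Depth limits the precision of low genes.

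Alternatives were DESeq2 1.42.0, its size factors, no filter, the replicate block, sex terms, each sex alone, a shared fit and leaving out each mouse. The length slope, the removal of 5 mice with high *Ttr* and the refits of single precursor genes were added after seeing the data. The tests were checked on simulated data. Values of some single genes are not reported here.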

Additional observations from a re-analysis of the deposited data

Results flagged for a closer look

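In 40 sets of 6 mice (10 genes in 4 genotypes) the highest and lowest mouse was tested for distance from the others with Dixon's critical value at 95%. Chance marks about 1 in 20 such sets, and 4 were marked. Among the Nestin-Cre mice the male of replicate 2 had the lowest *Npy*, 17.3 CPM, with the next mouse at 26.7. Among the Egr1cKO mice the female of replicate 1 had the highest *Cck*, 360.04 CPM, with the next at 317. The Egr1cKO male of replicate 2 had the lowest *Reln*, 62.5 CPM, with the next at 85.1. The Egr1cKO male of replicate 3 had the highest *Pnoc*, 7.03 CPM, with the next at 5.94.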

How the results depend on the processing

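The number of the 10 genes called was 0 in every comparison and stayed 0 under most alternatives. Without the filter on low counts edgeR called 2 against floxed mice (*Pvalb* and *Reln*), 1 against Nestin-Cre and 1 against wild-type mice (*Reln* in each), 1 between floxed and wild-type mice (*Calb2*), 3 in the interaction (*Sst*, *Pvalb* and *Reln*) and 3 in the test of any difference (*Pvalb*, *Calb2* and *Reln*). These fits called 2.36%, 1.55%, 0.73%, 0.475%, 3.2% and 2.98% of all genes. DESeq2 and females alone each called 1 against Nestin-Cre mice, *Reln*, at adjusted p values of 0.0461 and 0.0179, where they called 0.201% and 1.81% of all genes and males alone 1 gene. Leaving out each mouse in turn, the number ran from 0 to 1 against floxed mice, from 0 to 1 against Nestin-Cre mice and from 0 to 2 in the interaction. In the interaction, without the Nestin-Cre male of replicate 2, *Reln* was at 0.94 with an edgeR adjusted p of 0.0242 and *Pvalb* at -0.65 with one of 0.0346. Over all genes the number called by edgeR reached 215 without the Egr1cKO male of replicate 3 against the other 18 mice. It reached 327 without the floxed male of replicate 1 against floxed mice. Without the Nestin-Cre male of replicate 2 it reached 795 against Nestin-Cre mice, 201 between Nestin-Cre and wild-type mice and 1482 in the interaction. The length slope was the lowest of its genotype in that Egr1cKO mouse (-0.0326). It was the highest of its genotype in the floxed mouse (0.0412) and in the Nestin-Cre mouse (0.0856). DESeq2 called 34, 60, 36 and 19 genes in the 4 comparisons of Egr1cKO mice, 17 and 2 for the alleles alone, 41 in the interaction, 32 in the test of any difference, 17 between the sexes and 6 for their interaction, and no filter gave up to 1173. Of the 13 differences of the 10 genes given with a value, 2 changed sign under an alternative (*Cck* in the interaction, 0.036 with the length slope as a term, and *Pvalb* against wild-type mice, 0.019 among females alone), and 0 did so without any 1 mouse; of the 77 others 41 and 24 did. *Cartpt* turned to -0.30 among females alone and ran from -0.36 (without the Egr1cKO male of replicate 3) to 1.04, and *Penk* from 0.0097 to 0.72, as each mouse was left out. Of the 45 pairs, 16 passed the threshold as reported, 0 within the 12 floxed mice, 3 with the length slope removed and 6 without the 5 mice with high *Ttr*, and 8 to 15 when each mouse was left out (8 without the Nestin-Cre male of replicate 3 and 9 without that of replicate 2). With the length slope removed r turned to -0.11 for *Sst* and *Cck* and to 0.18 for *Npy* and *Reln*. With the replicate number as a block, edgeR called 0 of the 10 genes in each of the 10 comparisons; the numbers did not pair the mice, since same-numbered mice had a mean r of -0.0103 in their deviations (36 pairs, -0.199 to 0.242) and other pairs 0.00502 (72 pairs), and the block moved the number of all genes called from 1 to 3 and from 4 to 9 against the other 18 and against floxed mice. The cause of these changes was not tested. Depth limits *Crh* most, with at most 57 reads per library.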
